A study of Mus musculus with 9 samples.

Results

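The prominins Prom1 and Prom2 were followed, probe by probe, across 9 microarrays of sorted mouse prostate cells. All probes whose gene name in the scanner files is Prom1 or Prom2 were taken. The 2 genes, of 27962 gene names on the array, have 2 probes each, 4 of its 41174 non-control probes. All 4 were among the 28330 probes that passed the filter on dim probes and were tested, the dimmer Prom1 probe only through marker-negative arrays.

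The cells came straight from prostates of BL6 mice, with no treatment, genotype change or age given in the labels. They were stained with fluorescent antibodies and sorted by FACS (fluorescence-activated cell sorting). Marker-positive cells, named stem cells in the labels, were Lin-CD44+CD133+Sca-1+CD117+ (3 arrays). Marker-negative cells, named non-stem cells, were Lin-CD44-CD133-Sca-1-CD117- (6 arrays). By these labels both fractions were sorted as lacking lineage markers (Lin-), yet RNA of lymphocyte and macrophage genes was measured, as given below. The fractions differed by 4 surface proteins at once, so no difference can be tied to CD133 alone. The labels do not say whether arrays stand for separate animals or pools, and the p-values cover only how far arrays of a group spread, which may be technical. Sample RNA was amplified, labelled with Cy5 and hybridised against the Universal Mouse Reference of Stratagene, a pool of mouse RNA labelled with Cy3, on every array. Each value below is a log2 ratio of Cy5 over Cy3 unless a signal is named. In sorted bulk samples, fewer cells that express a gene and less RNA per cell cannot be told apart.

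Prominins are glycoproteins that cross the cell membrane several times and sit in microvilli, cilia and other protrusions, where they bind membrane cholesterol. Prom1 encodes CD133, a surface protein widely used to isolate stem and progenitor cells, and is also needed for the outer segments of photoreceptors. Prom2 is its paralog, known from the apical and protruding membranes of many epithelia, the prostate among them. A cell sort on CD133 reads protein at the surface, whereas the arrays read RNA.

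The 2 genes lie on different chromosomes. The scanner files place both Prom1 probes on chromosome 5 and both Prom2 probes on chromosome 2, on the minus strand, in build mm7. Prom1 probe A_51_P414072 is listed at chr5:43314657-43314716 and Prom1 probe A_52_P402786 at chr5:43326736-43326795. Both are assigned to the transcript NM_008935. Prom2 probe A_52_P452667 is listed at chr2:127268013-127268072 and is assigned to NM_178047, annotated in the files as transcript variant 2. Prom2 probe A_51_P385928 is assigned to NM_138750, transcript variant 1, and its listed interval, chr2:127273709-127275709, spans 2001 bases where those of the other probes span 60. Exons and untranslated regions of mm7 were not used here. Within each gene the first of these probes had the higher signal and is called the brighter probe, and the other the dimmer probe.

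The stretches before the transcription starts of both genes are shown as a description only. They are RefSeq sequences of 250 bases on GRCm38.p6, minus strand, ending just before the annotated start, at chr5:44101737-44101986 for the first of 2 listed Prom1 starts and chr2:127541418-127541667 for Prom2. Capitals mark matches, on either strand, to the motifs named after them.
Prom1: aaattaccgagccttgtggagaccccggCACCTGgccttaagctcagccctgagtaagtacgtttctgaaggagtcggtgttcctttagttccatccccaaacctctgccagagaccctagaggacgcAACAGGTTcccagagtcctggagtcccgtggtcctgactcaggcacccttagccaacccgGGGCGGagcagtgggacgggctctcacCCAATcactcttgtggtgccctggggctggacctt
Prom2: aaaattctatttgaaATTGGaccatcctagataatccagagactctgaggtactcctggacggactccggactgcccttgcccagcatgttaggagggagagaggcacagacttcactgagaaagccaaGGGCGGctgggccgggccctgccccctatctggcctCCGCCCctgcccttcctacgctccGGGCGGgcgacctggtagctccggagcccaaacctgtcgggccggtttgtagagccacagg

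The Prom1 stretch was 59.2% G and C with 9 CpG dinucleotides, and the Prom2 stretch 60.8% with 12 CpG, against medians of 52.4% and 6 over 32851 such windows of the RefSeq table. The GC box GGGCGG matched 1 time before Prom1 and 3 times before Prom2, and 32.7% of all windows held it. CCAAT matched 1 time in each (33.8% of windows). AACNNGTT, the core of sites bound by Grainyhead-like epithelial factors, matched before Prom1 (3.64% of windows) and not before Prom2. CAGGTG, an E-box of the Zeb and Snail repressors, also matched before Prom1 (17.2% of windows) and not before Prom2. TATAAA (12.4% of windows) and the ETS core CCGGAA (12% of windows) matched in neither. The second listed Prom1 start, not printed, had 50.8% G and C and 3 CpG, with an AACNNGTT match and none to the other motifs. These matches describe letters in the windows, and the arrays do not measure factor binding. Whether they bear on the RNA level of either gene was not tested.

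Signal strength limited what could be measured. The share of probes whose Cy5 signal stood well above background was 67.3%, 69.3% and 45.4% for marker-positive replicates 1, 2 and 3, and between 47.5% and 69.4% on the marker-negative arrays. Marker-positive replicate 3 and marker-negative replicate 3 had the lowest shares, and results are given below without both. Arrays correlated with one another at r from 0.582 to 0.923 within the marker-positive group. There replicates 1 and 2 gave 0.923, while replicate 3 gave 0.609 with replicate 1 and 0.582 with replicate 2. Values ran from 0.668 to 0.901 within the marker-negative group and from 0.483 to 0.729 between groups. The files place the arrays on 5 slides. Slide 1 held replicate 1 of both groups, slide 2 held marker-positive replicate 2 with marker-negative replicates 2 and 4, and the other slides held 1 group each.

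Of the genes for the other sort markers, Cd44 exceeded its marker-negative level by 2.06 (SE 0.36; limma adjusted p = 0.0166), Ly6a, which encodes Sca-1, by 3.93 (SE 0.65; adjusted p = 0.0132) and Kit, which encodes CD117, by 3.45 (SE 0.78; adjusted p = 0.0461). These 3 genes thus ran in the direction of the sort. Neither probe of Prom1, the gene of the remaining marker CD133, was called.

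Prom1 RNA was found in both fractions, at overlapping levels on the brighter probe. There the log2 ratios of marker-positive replicates 1, 2 and 3 were 2.41, 2.89 and 0.19. Those of marker-negative replicates 1 to 6 were 2.47, 3.29, 1.05, 2.32, 1.59 and 2.89. Marker-positive replicate 3 was the lowest of all arrays, and the other marker-positive arrays lay inside the marker-negative range. The means were 1.83 ± 1.44 (SD, n = 3) and 2.27 ± 0.83 (SD, n = 6). The difference, marker-positive minus marker-negative, was -0.44 (SE 0.64, 95% confidence interval -1.86 to 0.98), and it did not pass the test (limma adjusted p = 0.766). An interval this wide holds sizeable differences in both directions, so equal levels were not shown. The sign turned without marker-positive replicate 3 (0.38), without both arrays of lowest Cy5 detection (0.14), with array weights (0.1) and with slide as a fixed block (0.02). It went the other way to -1.76 with processed signals and to -0.97 without marker-positive replicate 2. On slide 1 the difference was -0.06 and on slide 2 it was 0.08.

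The Cy5 signals behind these ratios, after subtraction of local background, were 492, 696 and 4.89 on the marker-positive arrays. They were 477, 1070, 71.1, 382, 125 and 344 on the marker-negative arrays. The brighter Prom1 probe was well above background in Cy5 on all 6 marker-negative arrays, whose cells were sorted as lacking surface CD133, and on 2 of 3 marker-positive arrays, with marker-positive replicate 3 as the exception. In the reference the probe was well above background on 0 of 9 arrays, with Cy3 signals of 2.87 to 9.75, so every Prom1 ratio rests on a Cy3 signal near background.

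The dimmer Prom1 probe gave 0.43, 0.28 and 0.11 on the marker-positive arrays and 0.72, 1.32, 2.51, 0.85, 1.14 and 0.52 on the marker-negative arrays. The ratios of the groups did not overlap, with every marker-positive array below every marker-negative one. Among all tested probes, 11.6% showed no overlap between groups, and 6.78% did so with the marker-positive arrays below. The means were 0.27 ± 0.16 (SD, n = 3) and 1.18 ± 0.72 (SD, n = 6), and the difference of -0.9 (SE 0.38, interval -1.75 to -0.06) did not pass after adjustment over all probes (limma adjusted p = 0.223). It was -0.29 on slide 1 and -0.81 on slide 2, -0.59 with slide as a fixed block, -0.55 without the 2 arrays of lowest Cy5 detection and -3.14 with processed signals.

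Cy5 signals of the dimmer Prom1 probe were 49.6, 30.6 and 11 on the marker-positive arrays, none of them well above background. On the marker-negative arrays they were 93.2, 213, 230, 117, 100 and 36.6, well above background on 5 of 6, with replicate 6 as the exception. Unlike the ratios, these signals overlapped, since marker-positive replicate 1 exceeded marker-negative replicate 6, neither of them well above background. No marker-positive array measured the probe above background. The lowest normalized Cy5 signal of any well-measured probe on each array was then used as a floor for the marker-positive values. With that floor the group means differed by 1.85-fold. This is no lower bound, since marker-negative replicate 6, also undetected, entered as measured. That figure compares means, leaves out their spread, and belongs to a difference that did not pass. Its Cy3 signal, 5.97 to 23.1, was well above background on 0 of 9 arrays.

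**Figure D1:**
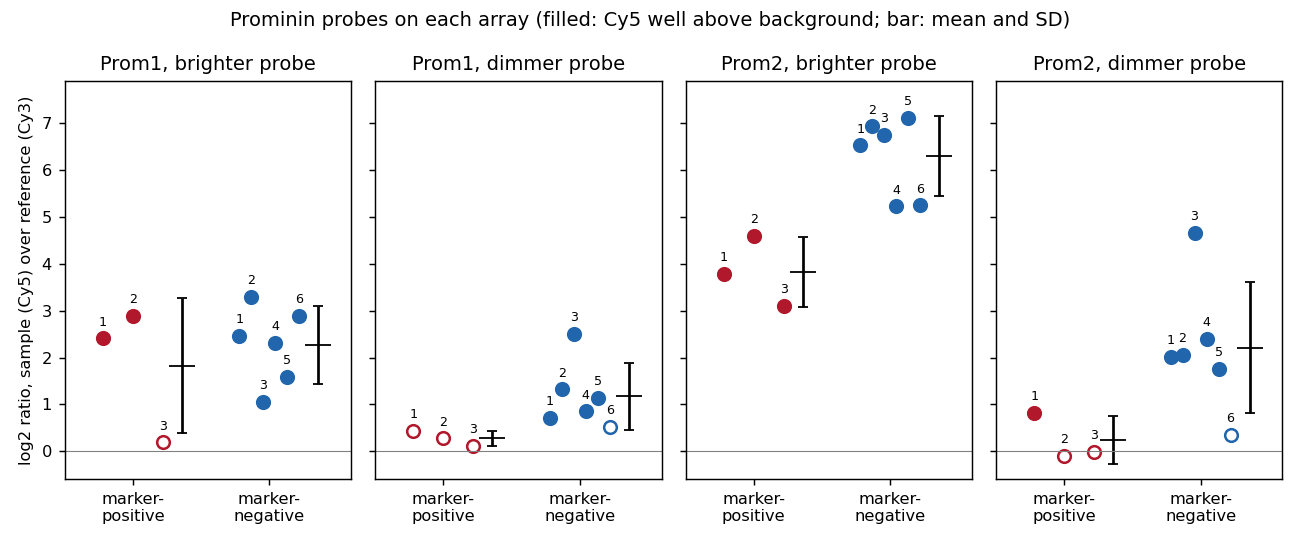
Log2 ratio of sample (Cy5) over reference (Cy3) for the 4 prominin probes, 1 point per array labelled with its replicate number, red for marker-positive (n = 3) and blue for marker-negative (n = 6), with mean and SD beside each group. Filled points were well above background in Cy5. The brighter Prom2 probe ranges from 3.1 to 4.6 in marker-positive and from 5.23 to 7.12 in marker-negative arrays, while the brighter Prom1 probe overlaps.

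Prom2, the paralog that was not part of the sort, was lower in marker-positive cells. On its brighter probe marker-positive replicates 1, 2 and 3 had log2 ratios of 3.79, 4.6 and 3.1. Marker-negative replicates 1 to 6 had 6.53, 6.93, 6.75, 5.23, 7.12 and 5.25. The groups did not overlap, which held for 11.6% of all tested probes, and for 6.78% with the marker-positive arrays below. Marker-negative replicates 4 and 6 were the lowest of their group. The means were 3.83 ± 0.75 (SD, n = 3) and 6.3 ± 0.84 (SD, n = 6). The difference of -2.47 (SE 0.54, interval -3.68 to -1.26), a 5.55-fold lower ratio in marker-positive cells, passed the test (limma adjusted p = 0.0407). It was the only 1 of the 4 prominin probes called, and 3.47% of all tested probes were called, 1.99% as lower and 1.48% as higher. A more negative difference was found for 1.11% of tested probes, against a median of -0.03 over all of them.

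The direction of the brighter Prom2 probe was the same on both slides that held both groups, at -2.74 on slide 1 and -1.48 on slide 2. The call was close to its threshold. With slide as a fixed block the difference was -2.02 (adjusted p = 0.283), and without the 2 arrays of lowest Cy5 detection it was -2.02 (adjusted p = 0.104). Leaving out any 1 of the 3 marker-positive arrays, or marker-negative replicate 1, 2, 3 or 5, also ended it, with differences from -2.86 to -2.11 over all 9 omissions. With the scanner software's processed signals the difference was -1.34 (adjusted p = 0.159).

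Cy5 signals of the brighter Prom2 probe were 1510, 2550 and 251 on the marker-positive arrays. They were 12500, 21900, 3100, 4150, 9020 and 1690 on the marker-negative arrays. All 9 arrays were well above background in Cy5, none was saturated, and Prom2 RNA was thus measured in both fractions. The raw signals of the groups overlapped, since marker-positive replicate 2 exceeded marker-negative replicate 6, whereas the ratios did not. In Cy3 the probe was well above background on 7 of 9 arrays, with signals of 11.3 to 68.7. Without the reference channel, with Cy5 alone and quantile normalization, the brighter Prom2 probe kept its call.

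The dimmer Prom2 probe, assigned to transcript variant 1, gave 0.82, -0.09 and -0.01 on the marker-positive arrays. It gave 2.02, 2.06, 4.66, 2.4, 1.76 and 0.35 on the marker-negative arrays. The groups overlapped through 1 array, marker-negative replicate 6, which lay below marker-positive replicate 1, and marker-negative replicate 3 was the highest. The means were 0.24 ± 0.5 (SD, n = 3) and 2.21 ± 1.4 (SD, n = 6). The difference of -1.97 (SE 0.73, interval -3.61 to -0.33) did not pass (limma adjusted p = 0.176), and passed only with array weights (-1.63, adjusted p = 0.0387). It was -1.2 on slide 1, -2.32 on slide 2 and -4.26 with processed signals.

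Cy5 signals of the dimmer Prom2 probe were 139, 2.61 and 3.97 on the marker-positive arrays, of which only replicate 1 was well above background. On the marker-negative arrays they were 406, 423, 789, 469, 142 and 29, well above background on 5 of 6, again without replicate 6. The size of this difference thus rests on marker-positive values at background on 2 of 3 arrays. In Cy3 the probe was well above background on 1 of 9 arrays.

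**Figure D2:**
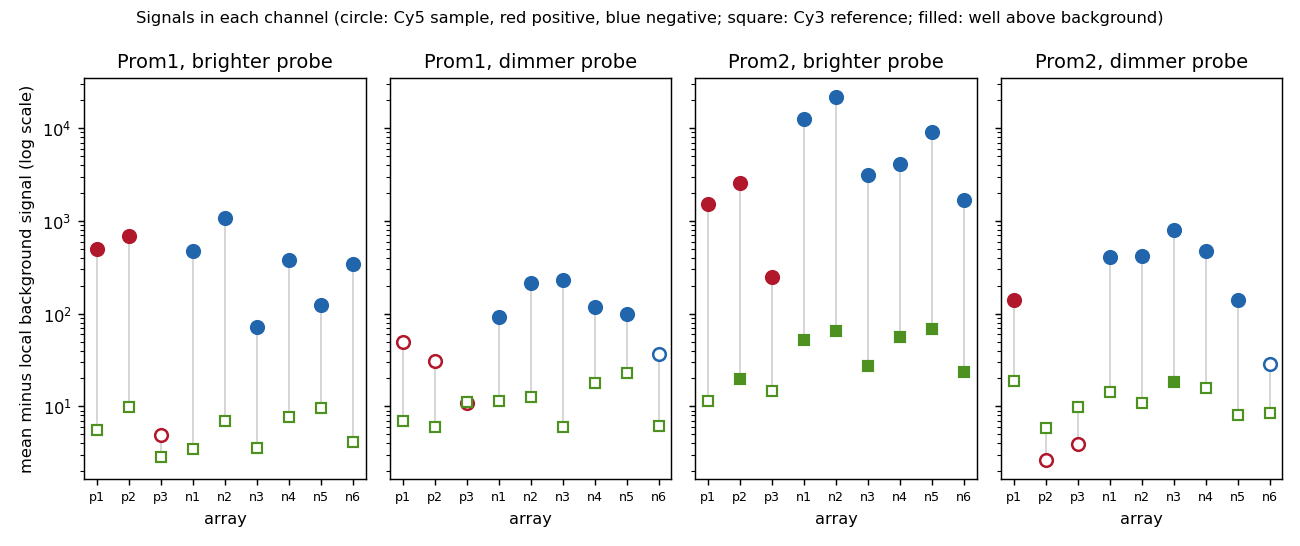
Signal minus local background (log scale) of the 4 probes on each array, marker-positive replicates p1 to p3 and marker-negative replicates n1 to n6, with circles for the Cy5 sample and squares for the Cy3 reference. Filled symbols were well above background: the reference was so on 0 of 9 arrays for both Prom1 probes and on 7 of 9 for the brighter Prom2 probe.

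Within each array the probes were then set against each other by their log2 ratios, and the difference between a pair of probes was compared between groups by a two-sided exact permutation test over the 84 possible splits, with p-values adjusted over 6 pairs. The smallest p this design allows is 0.0119, and 1 pair at that value on its own would have an adjusted p of 0.0714, so a lone pair could not pass. The group difference of the brighter Prom1 probe exceeded that of the brighter Prom2 probe by 2.03 (exact permutation p = 0.0714, adjusted 0.167). With processed signals the sign of this contrast turned (-0.42, exact permutation p = 0.833). The smallest p of the 6 pairs was that of the dimmer Prom1 against the brighter Prom2 probe (1.57, exact permutation p = 0.0357, adjusted 0.167). Against the dimmer Prom2 probe, the contrast was 1.53 for the brighter Prom1 probe (exact permutation p = 0.286) and 1.06 for the dimmer (exact permutation p = 0.0833). No pair passed after adjustment, which in this design does not show that Prom1 and Prom2 differed alike between the fractions. That only a Prom2 probe was called is no test of a difference between the genes.

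Contrasts of probes of the same gene use the dimmer probes, measured at background on most marker-positive arrays, and did not pass. The group difference of the brighter Prom1 probe exceeded that of the dimmer by 0.46 (exact permutation p = 0.643). The group difference of the brighter Prom2 probe lay 0.5 below that of the dimmer (exact permutation p = 0.583). The sign of the Prom2 contrast turned with the smaller normexp offset (0.35) and with processed signals (2.92), and that of the Prom1 contrast without marker-positive replicate 2 (-0.06) or marker-negative replicate 3 (-0.05). Which probe of a gene gives the larger difference was thus not settled.

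**Figure D3:**
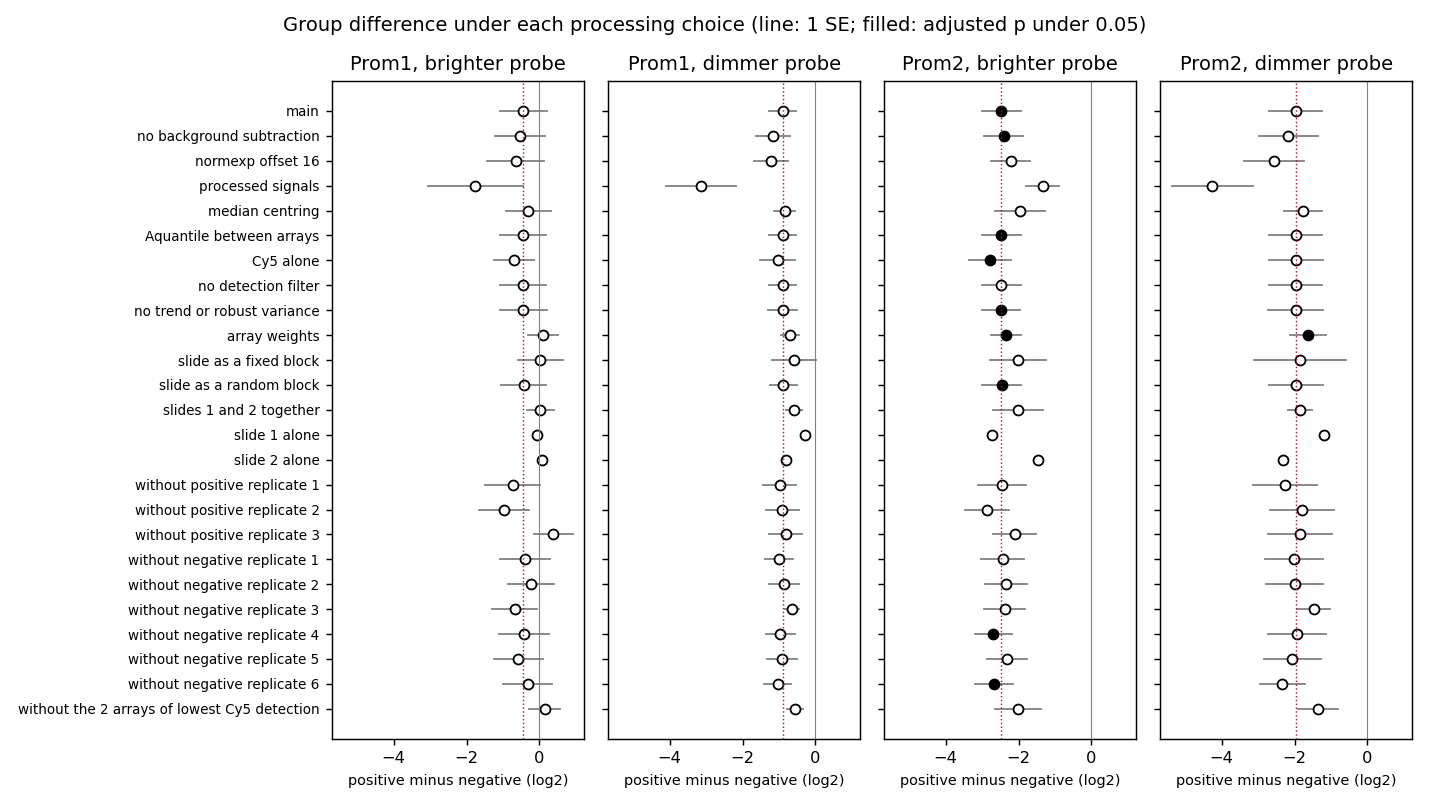
Difference between groups (log2, marker-positive minus marker-negative) of the 4 prominin probes under each processing choice, with lines of 1 SE, filled points where the adjusted p was under 0.05 and a dotted line at the value reported. Slides taken alone have no test. Points of the brighter Prom2 probe lie between -2.86 and -1.34 and those of the brighter Prom1 probe between -1.76 and 0.38.

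Among the 6 marker-negative arrays, the brighter probes of Prom1 and Prom2 gave Pearson r = -0.326 (exact permutation p = 0.532) and Spearman rho = -0.143 (exact permutation p = 0.803). Without the 2 of these arrays farthest from their median Prom1 value r was -0.76 over 4 arrays, and with median centring in place of loess it was 0.42. The 2 Prom1 probes gave r = -0.667 (exact permutation p = 0.136) and the 2 Prom2 probes r = 0.399 (exact permutation p = 0.508). Without the 2 arrays farthest from the median of the brighter probe these became -0.992 and -0.275 over 4 arrays, so the sign of the Prom2 relation rests on those arrays. Their exact permutation p over 4 arrays was 0.0417 and 0.708 (adjusted 0.125 and 0.708). The value of 0.0417 is the smallest that 4 arrays allow, so a lone relation could not pass after adjustment. Over all 9 arrays, which share the group difference, r was 0.263 for the brighter probes, -0.139 for the Prom1 probes and 0.687 for the Prom2 probes. There the exact permutation p was 0.495, 0.717 and 0.038 (adjusted 0.717, 0.717 and 0.114). Of these 3 relations over 6 arrays none passed, before or after adjustment (adjusted p for Pearson r from 0.408 to 0.532). The Prom1 probes, both assigned to 1 transcript, therefore did not rank the marker-negative arrays alike: replicate 3 was lowest on the brighter and highest on the dimmer probe.

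The genes whose log2 ratios ran most like each prominin were taken from the 16085 other tested genes that have a current symbol and a value on every array, by Pearson r over all 9 arrays, which share the group difference and the reference. For Prom1 they were Hmgn5, a nucleosome-binding protein (r = 0.986), Il1f5 (0.958), Sap130 (0.938), Dgkeos (0.937) and Ildr1 (0.931). None of these 5 was called, with differences from -0.62 to -0.02. Il1f5 was well above background on only 2 marker-positive and 2 marker-negative arrays. As the r given here and for Prom2 are the highest of 16085 over 9 arrays, their size is in part set by the selection. The selection also drew on the group difference, so whether these genes were called is no separate evidence about either prominin. For Prom2 they were Fbp1, an enzyme of gluconeogenesis (r = 0.986), Il17re (0.984), Bckdha, a subunit of the enzyme that breaks down branched-chain keto acids (0.984), Rab25, a GTPase of epithelial membrane recycling (0.984), and Ap1m2, a sorting adaptor subunit of epithelia (0.98). Rab25 fell by 1.47 (SE 0.32; limma adjusted p = 0.0373) and Bckdha by 1.1 (SE 0.26; adjusted p = 0.0481). Fbp1 (-2.71), Ap1m2 (-2.15) and Il17re (-1.11) did not pass, with adjusted p of 0.0702, 0.0547 and 0.0781.

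Genes of the prominins' surroundings were read from gene lists, each gene by its brightest tested probe. Of 19848 genes tested, 1.57% were called higher and 1.67% lower in marker-positive cells, with a median difference of -0.01. Of 11 genes for proteins that bind prominins or carry their signals, 10 were tested and 1 fell: Pik3r1, the regulatory subunit of PI3-kinase, by 1.58 (SE 0.35; adjusted p = 0.0414). The ciliary GTPase Arl13b (1.28, adjusted p = 0.111), the raft protein Flot2 (0.76, adjusted p = 0.14) and the kinase Fyn (1.09, adjusted p = 0.149) did not pass. The median of the 10 was 0.46.

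Of 16 genes of microvilli and the apical membrane, where prominins reside, 14 were tested and none passed, with a median difference of 0.27. The smallest adjusted p-values were those of the actin linker Rdx (1.24, adjusted p = 0.185), the bundling protein Vil1 (1.22, adjusted p = 0.242) and the polarity protein Crb3 (-1.19, adjusted p = 0.321). Of 12 genes of the primary cilium 11 were tested, and 1 fell: Ift20, of the intraflagellar transport machinery, by 1.58 (SE 0.3; adjusted p = 0.0239). The cilium list's median was -0.04. Cdhr1, a partner of Prom1 in photoreceptors, was not among the genes tested.

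Markers of luminal epithelium, the secretory layer of the prostate gland, mostly had negative differences, as Prom2 did. Of 15 genes, 14 had a negative difference, the median was -1.22, and 1 fell: Pbsn, which encodes the prostate secretory protein probasin, by 1.99 (SE 0.43; adjusted p = 0.0384). The transcription factors Spdef (-3.01, adjusted p = 0.0566) and Hoxb13 (-3.44, adjusted p = 0.0667) did not pass. The list's mean log2 ratio was 2.88, 2.89 and 0.73 on marker-positive replicates 1, 2 and 3. It was 4.05, 4.39, 3.76, 2.87, 3.72 and 2.88 on marker-negative replicates 1 to 6. Marker-positive replicate 3, lowest in the brighter Prom2 probe, was also lowest in this list, and marker-negative replicates 4 and 6 were lowest of their group in both. The same arrays were also lowest of their groups in the means of the basal, endothelial and fibroblast lists described below, so this order is not particular to luminal genes. The part of luminal cell content in the Prom2 difference was not tested.

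Genes of other epithelial layers mostly had positive differences. Of 9 tested genes of the proximal ducts none passed and the median was 1.14. Of 11 tested basal genes 1 rose, the basal transcription factor Trp63, by 2.02 (SE 0.45; adjusted p = 0.0446), with a median of 0.87, and 2 had a negative difference. List means of the groups overlapped. Proximal means were 0.8 to 2.83 in marker-positive and 0.13 to 1.9 in marker-negative arrays, and basal means 0.16 to 2.83 and 0.19 to 2.01. Marker-positive replicate 3 was the lowest of its group in both lists.

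Markers of non-epithelial cells also differed between the fractions. Of 8 mast cell genes 3 rose and of 10 macrophage genes 4 rose, with list means per array of 3.44 to 3.96 and 3.66 to 4.63 in marker-positive arrays against 0.19 to 2.62 and 0.34 to 2.76 in marker-negative arrays. Of the macrophage genes, Cd163 and Mrc1 stood well above background on 0 of the 6 marker-negative arrays. Both are among the 4 that rose, and both entered the test only through marker-positive arrays. Of 11 lymphocyte genes 5 fell, with list means of 0.24 to 1.68 in marker-positive and 2.23 to 4.16 in marker-negative arrays. Cd8a, among those that fell, stood well above background on 0 of the 3 marker-positive arrays and entered the test only through marker-negative arrays. Of 9 tested endothelial genes 1 rose, Vwf, the von Willebrand factor, by 3.99 (SE 0.6; adjusted p = 0.00843), with list means of 0.84 to 4.9 and 0.79 to 2.26. None of 10 fibroblast genes passed, with list means of -3.36 to 1.17 and -3.53 to -0.57. Their part in the prominin values was not tested.

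**Figure D4:**
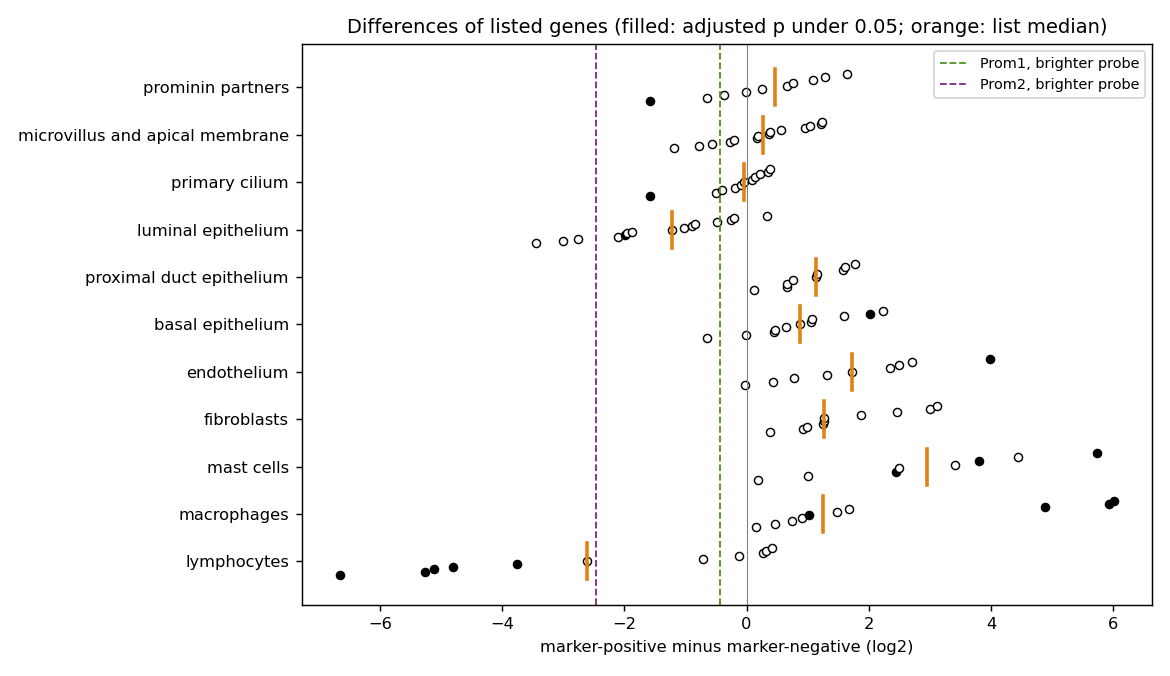
Difference between groups (log2, marker-positive minus marker-negative) of each tested gene in 11 lists, filled where the limma adjusted p was under 0.05, with the list median in orange and dashed lines at the brighter probes of Prom1 (-0.44) and Prom2 (-2.47). The luminal list lies mostly below 0, with a median of -1.22.

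The authors' deposited table lists the same 4 probes with differences taken as non-stem minus stem, the opposite sign to that used above. The authors' deposited table gives the brighter Prom2 probe a log2 difference of 2.47 (adjusted p = 0.0108) and the dimmer 1.98 (adjusted p = 0.0918). For Prom1 the authors' deposited table gives 0.92 (adjusted p = 0.127) for the dimmer and 0.45 (adjusted p = 0.784) for the brighter probe. In that table the brighter Prom2 probe was the only prominin probe under an adjusted p of 0.05. It was 1 of 2419 rows there under that threshold, so many other rows passed as well. That count alone, without its share of all rows, does not show how unusual the call was in that table. The authors' table comes from the same series, so it is no independent check of the call above.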

How the data were processed

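The submitters' processing notes name Agilent Feature Extraction 10.7. Its files give mean and local background intensity per spot, not normalized, per the file headers. The authors' deposited table holds log2 differences, p-values and a signed fold; how it was normalized is not stated there. Background was corrected on the mean signals by normexp (offset 50, median local background) and ratios normalized by loess within arrays, with limma 3.58.1 in R 4.3.3, leaving out control and outlier spots. Probes with Cy5 well above background on 3 or more arrays were tested with limma (trend, robust), two-sided, with Benjamini-Hochberg adjustment over 28330 probes and a threshold of 0.05. The procedure was tested on simulated data. Well above background is the scanner software's call. The number of arrays limits the precision. Array design 014868 has 1 spot for each prominin probe. Named genes were all prominin probes, the other sort markers, the 5 genes most alike to each prominin, and the 3 smallest adjusted p-values of each list, of which those that passed and examples are given. The members and lists were chosen with earlier results of these data known. Names followed the RefSeq table of GRCm38.p6. Alternatives covered background correction, normalization, filter, variance model, array weights, slide and omitted arrays. Plots used matplotlib 3.10.9.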

Additional observations from a re-analysis of the deposited data

How the results depend on the processing

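The brighter Prom2 probe was lower in marker-positive cells under all 24 alternatives (-2.86 to -1.34), and 8 kept its call. All alternatives reuse the same arrays, and slides 1 and 2 each taken alone had no test. The call was lost with a normexp offset of 16 (-2.22, adjusted p = 0.0541), processed signals (-1.34), median centring (-1.96, adjusted p = 0.239), no detection filter (-2.47, adjusted p = 0.0525, over 41174 probes), slide as a fixed block (-2.02), slides 1 and 2 together (-2.02, adjusted p = 0.256) and without the 2 arrays of lowest Cy5 detection, chosen after seeing the data (-2.02). Slide 2 alone gave -1.48. Leaving out each array in turn gave -2.86 to -2.11 (adjusted p from 0.0285 to 0.148), and the call held only without marker-negative replicate 4 or 6. Both dimmer probes stayed negative under all 24 alternatives, Prom1 from -3.14 to -0.29 with no call and Prom2 from -4.26 to -1.2 with a call under array weights (-1.63). The brighter Prom1 probe was never called. It was negative under 18 of 24 alternatives and turned with array weights (0.1), slide as a fixed block (0.02), slides 1 and 2 together (0.02) and without the 2 arrays of lowest detection (0.14), and ranged from -0.97 to 0.38 with single arrays left out.

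Contrasts of probes reversed for Prom2 brighter minus dimmer with offset 16 (0.35) and processed signals (2.92, exact permutation p = 0.0476), and for Prom1 minus Prom2 brighter with processed signals (-0.42). With single arrays left out, the Prom1 contrast ran from -0.06 to 1.2 and that of Prom1 minus Prom2 brighter from 1.7 to 2.48, with 1 unadjusted exact permutation p under 0.05 (0.0357, without marker-negative replicate 6). The r of Prom1 with Prom2 was 0.42 with median centring.

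Calls over all probes, 420 higher and 563 lower, became 200 and 207 with median centring, 2906 and 3444 with array weights, and 161 and 48 with slide as a fixed block. On slides 1 and 2 together limma called 0 and 0, with 5254 probes at an unadjusted p under 0.05. Without the 2 arrays of lowest detection 1216 were higher. Single omissions gave 129 to 1205 higher and 161 to 771 lower. Calls as lower were 57.3% of calls, 68.6% with processed signals and 23% with the slide block. The cause of these changes was not tested. A filter on both channels on all arrays left no prominin probe, so it gave no value. No paired analysis was possible by replicate number, because the numbers were given in accession order; arrays were matched by slide in the slide fits above.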
